A study of Argopecten irradians concentricus with 9 samples.

Results

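The thick filament is the myosin bundle of muscle, and the gene models examined here are those whose Swiss-Prot match names a myosin, paramyosin, twitchin or titin. The match name was read from the description of every gene model, and names beginning with Myosin, Paramyosin, Unconventional myosin, Twitchin or Titin were kept. This gave 58 of 28864 gene models. Of these, 25 formed the muscle set: 1 muscle heavy chain, 8 light chains, 1 paramyosin and 15 twitchin or titin models. Every light chain was placed there by name, including matches to chains of non-muscle myosin. The other models were 27 unconventional myosins, 3 myosin light chain kinases, 1 non-muscle heavy chain and 2 heavy chains named after other kinds of organism. The names rest on sequence likeness alone, often to a protein of another species.

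The samples were adductor muscle, the shell-closing muscle, of the bay scallop Argopecten irradians concentricus. RNA was sequenced from scallops labelled 1 year old at high temperature, low temperature and room temperature, with 3 libraries in each of the 3 groups. The labels give no degrees and no duration, and they do not say whether the striated or the smooth part of the muscle was taken. The labels speak of tanks, but nothing ties the libraries of a group to separate tanks or animals. The p-values therefore measure the spread between these libraries, which may be technical.

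In a thick filament, pairs of myosin heavy chains carry the motor heads, and each head binds an essential and a regulatory light chain. Molluscan myosin is switched on by calcium that binds at the light chain region itself, and scallop adductor muscle is where this myosin-linked switch was worked out. Paramyosin, a coiled-coil rod, forms the filament core in invertebrate muscle. Twitchin is a giant relative of titin whose phosphorylation controls catch, the low-energy holding state of molluscan smooth muscle. In scallops the striated and catch forms of the heavy chain are spliced from the same gene, so a gene-level value does not separate them. Unconventional myosins are motors that move cargo or membranes in many cell types.

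The libraries held 11716140 to 16229040 assigned reads. Values are FPKM, fragments per kilobase of gene model scaled to library depth by a number of reads, the divisor. It was recovered from the values, and how it was set is not stated in the sources used here. That divisor was 0.65 times the assigned reads in high temperature replicate 3 and 0.869 to 1.40 times in the other 8 libraries, so the deposited FPKM carry a scaling between libraries. High temperature replicate 3 stood apart, at 52 on the leading principal component against -28.5 to 13.8 for the others (low temperature replicate 3 stood apart on the next component), and its 50 most abundant gene models took 62.1% of reads against 50.1% to 58.3% elsewhere. Of 13 models on the list of muscle markers 5 averaged at least 1 FPKM. Adductor muscle actin averaged 24433 FPKM, arginine kinase 17221, troponin I 2434 and troponin C 2084, and the striated heavy chain is given below. The rest of the list, further actin, arginine kinase and troponin C matches, averaged 0.491 FPKM or less, and 2 of them had no read. Of 89 models on the list of cilia markers 14 averaged at least 1 FPKM, and the list summed to 58 to 66.7 FPKM at high, 58.3 to 72.5 at low and 71.1 to 76.4 at room temperature. Digestive gland markers summed to 11.2 to 28.3, 5.98 to 9.09 and 3.84 to 11.7 FPKM in the high, low and room libraries. Gonad markers summed to 5.18 to 20.5, 3.83 to 8.32 and 3.53 to 3.95 FPKM in the same order, so the high libraries lay above all room libraries. Of the 21 gonad models 3 averaged at least 1 FPKM, as did 3 of the 36 digestive gland models. Both lists were highest in high temperature replicate 3. Nerve markers summed to 12.3 to 14 FPKM at high, 9.35 to 18.3 at low and 10.7 to 15.8 at room temperature. Shell or mantle markers summed to 7.72 to 10.8 FPKM at high, 3.68 to 6.33 at low and 7.50 to 18.2 at room temperature. The low libraries thus lay below all others, on a list where 1 of 25 models averaged at least 1 FPKM. No read was found for 11 of the 89 cilia, 11 of 36 digestive gland, 6 of 21 gonad, 7 of 36 nerve and 11 of 25 shell or mantle models, the chymotrypsin-1, trypsin-4 and nanos matches among them. The part of these cells in the values below was not tested, and in whole tissue fewer cells of a type cannot be told apart from less RNA per cell.

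Thick filament RNA came almost wholly from 4 gene models: a regulatory light chain, an essential light chain, paramyosin and the striated heavy chain. Together they held 99.4% to 99.7% of the FPKM of all 58 models in every library. They took 11.9% to 13.9% of assigned reads at high, 11.7% to 12% at low and 11% to 11.8% at room temperature. The high and room ranges did not overlap, by a narrow margin, and no test was made on this share. Of the 4 genes only the essential light chain had shares of reads that did so on its own. By assigned reads, 5.17% of all gene models were higher without overlap in high than in room libraries. The other 54 models summed to 260.2 to 339 FPKM at high, 261 to 310 at low and 253 to 312 at room temperature.

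By mean FPKM the most abundant gene model of the whole table matched myosin regulatory light chain A of smooth adductor muscle. This is the chain that scallop myosin needs for its calcium switch. By reads the model ranked 8. The model, evm.TU.Contig1462.6, lies on Contig1462 from 224622 to 231433 on the plus strand and has a length of 489 bases with an EF-hand domain. It had 31214, 30683 and 78735 FPKM in the high temperature libraries, 29855, 53790 and 39999 FPKM at low temperature and 39264, 44816 and 45426 FPKM at room temperature. High temperature replicate 3 was the highest of the 9, the other high libraries lay below all room libraries, and the groups overlapped.

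The essential light chain of striated adductor muscle, the partner chain at which calcium binds, ranked 4 in the table by mean FPKM and 2 by reads. Its model, evm.TU.Contig731.36, lies on Contig731 from 938028 to 950421 on the minus strand, with a length of 3909 bases. It had 12438, 14631 and 28850 FPKM at high temperature, 10554, 17155 and 21381 FPKM at low temperature and 13835, 16349 and 16927 FPKM at room temperature. By reads the order of these chains was the other way round: the regulatory chain had 0.234 to 0.392 times as many reads as the essential chain over the 9 libraries, but 1.87 to 3.14 times its FPKM. The 489 bases of the regulatory chain model against 3909 of the essential chain model set that difference, so the order of these light chains rests on how the models were drawn.

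Paramyosin, evm.TU.Contig362.107 on Contig362 from 2228666 to 2242022 on the plus strand, has a length of 3972 bases and a myosin tail domain. Its libraries stood at 2770, 2496 and 6460 FPKM at high, 2578, 3075 and 3433 FPKM at low and 2193, 2521 and 3795 FPKM at room temperature. The striated muscle heavy chain, the motor subunit, was represented by a single model, evm.TU.Contig471.40, on Contig471 from 737433 to 761750 on the minus strand. Heavy chain libraries had 2321, 2254 and 5436 FPKM at high, 2932, 3152 and 3223 FPKM at low and 2654, 2858 and 3679 FPKM at room temperature. Averages over the 9 libraries were 3258 FPKM for paramyosin and 3168 FPKM for the heavy chain, a difference within the spread of either. The fifth model of the set was 41.7-fold below the heavy chain.

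High temperature replicate 3 carried 1.35 to 1.70 times the FPKM of the highest other library for each of these 4 genes. With assigned reads as the divisor in place of the one behind the deposited FPKM, a setting chosen after seeing the data, the same ratio was 0.869 to 1.08. On that scale the essential light chain had 17472, 17968 and 18766 FPKM by assigned reads at high temperature, 14642, 15764 and 18577 at low temperature and 15233, 16777 and 14965 at room temperature. All high temperature values of this gene then lay above all room temperature values, where the deposited FPKM overlapped, and the limma adjusted p for this comparison on that scale was 0.866. High and room libraries overlapped for the other abundant genes: regulatory light chain A at 37679 to 51216 against 40163 to 45988, paramyosin at 3066 to 4202 against 2415 to 3355 and the heavy chain at 2767 to 3536 against 2923 to 3252. Of the 22 tested members 2 were higher without overlap on that scale, the essential light chain and light chain kinase evm.TU.Contig413.8, and 0 were lower, where 5.17% of all gene models were higher and 4.06% lower.

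**Figure D1:**
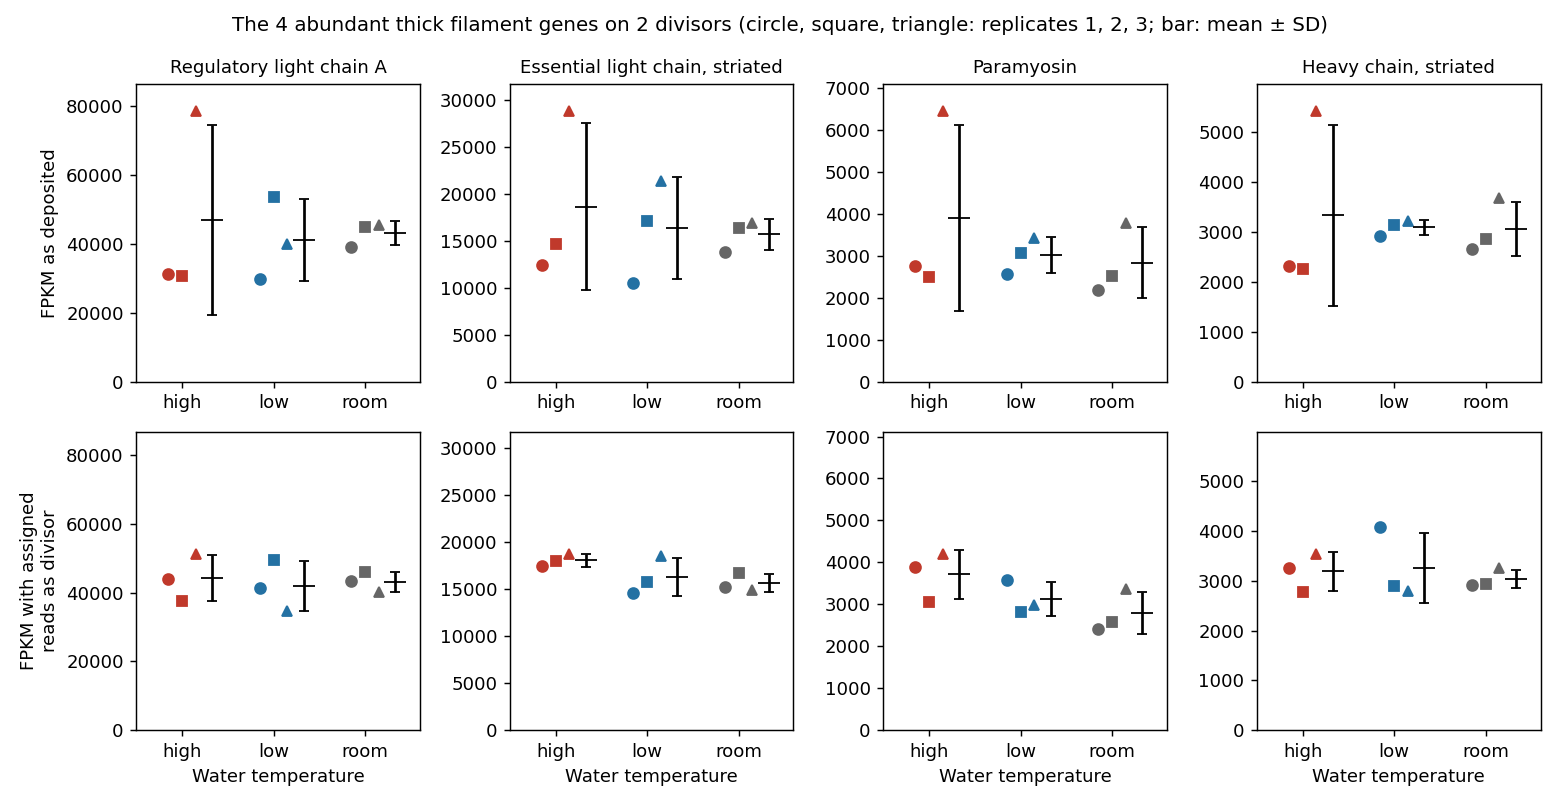
FPKM as deposited (upper row) and FPKM with assigned reads as the divisor (lower row) of the 4 abundant genes by water temperature, with replicates 1, 2 and 3 as circle, square and triangle and the mean ± SD as a bar. High temperature replicate 3 stands at 1.35 to 1.70 times the highest other library in the upper row and 0.869 to 1.08 times in the lower row.

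None of these 4 genes passed the test in any comparison. Tests used limma on log2(FPKM + 1), fitted to the 8624 gene models with a mean of at least 1 FPKM, with Benjamini-Hochberg adjustment over all of them and a call at an adjusted p under 0.05. Paramyosin averaged 3909 ± 2213 FPKM at high, 3029 ± 430 at low and 2836 ± 846 at room temperature (SD, n = 3 each). The log2 difference of paramyosin was 0.36 in high minus room (95% interval -0.53 to 1.26, limma adjusted p = 0.819) and 0.13 in low minus room (-0.77 to 1.02, limma adjusted p = 0.957). The heavy chain averaged 3337 ± 1818, 3103 ± 152 and 3064 ± 542 FPKM in the high, low and room groups (SD, n = 3 each), with log2 differences of 0.01 for high minus room (-0.82 to 0.84) and 0.03 for low minus room (-0.80 to 0.86). The heavy chain differences had limma adjusted p-values of 0.997 and 0.988.

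The light chains differed as little. Regulatory light chain A had a log2 difference of -0.03 in high minus room (95% interval -0.98 to 0.93, limma adjusted p = 0.99) and -0.11 in low minus room (-1.06 to 0.85, limma adjusted p = 0.969). The essential light chain had 0.15 in high minus room (-0.75 to 1.06, limma adjusted p = 0.941) and 0.01 in low minus room (-0.90 to 0.91, limma adjusted p = 0.997). These intervals, which are not adjusted for the number of genes, leave room for differences of near 2-fold in either direction, so a missed threshold does not show equal levels. Between high and low temperature the 4 differences ran from -0.02 for the heavy chain to 0.24 for paramyosin, with limma adjusted p-values of 0.886 to 0.992. Signs that close to 0 were not stable. That of regulatory light chain A turned positive under other scalings in high minus room (0.01 to 0.25) and reached 0.000996 in low minus room. Those of the essential light chain and the heavy chain turned negative in low minus room (-0.05 and -0.03), and that of the heavy chain turned positive in high minus low (0.31).

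Ratios within a library do not depend on how libraries are scaled against each other, and paramyosin stood higher relative to the heavy chain at high temperature. The FPKM ratio of paramyosin to the striated heavy chain was 1.19, 1.11 and 1.19 at high temperature, 0.879, 0.976 and 1.07 at low temperature and 0.826, 0.882 and 1.03 at room temperature. The 3 high temperature libraries lay above every low and every room library, while low and room overlapped. Group means were 1.16 ± 0.048 at high, 0.973 ± 0.0931 at low and 0.913 ± 0.106 at room temperature (SD, n = 3 each). With 3 libraries against 3 an exact permutation test cannot go below p = 0.1, and none was run. Against the same heavy chain, 3.36% of 8623 gene models had a ratio that was higher without overlap in high than in room libraries and 6.05% in high than in low libraries. Of 21 members 2 did so in high against room, paramyosin and light chain kinase evm.TU.Contig413.8, and 2 in high against low, paramyosin and regulatory light chain 2. Lower ratios without overlap were found for 0 of 21 members in high against room (3.77% of gene models) and 0 in high against low (3.60%). In low against room 1 member was higher without overlap, where 5.29% of gene models were, and 2 were lower, where 7.84% were.

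The light chains did not separate the groups in this way. The essential light chain to heavy chain ratio was 5.36, 6.49 and 5.31 at high, 3.60, 5.44 and 6.63 at low and 5.21, 5.72 and 4.60 at room temperature. For regulatory light chain A the ratio was 13.4, 13.6 and 14.5 at high, 10.2, 17.1 and 12.4 at low and 14.8, 15.7 and 12.3 at room temperature. The low temperature libraries spanned the widest range for both. The 4 genes summed to 2.46, 2.02 and 2.09 times the FPKM of the thin filament list at high, 2.25, 1.86 and 1.67 times at low and 1.93, 2.16 and 1.70 times at room temperature, with overlap between all groups.

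**Figure D2:**
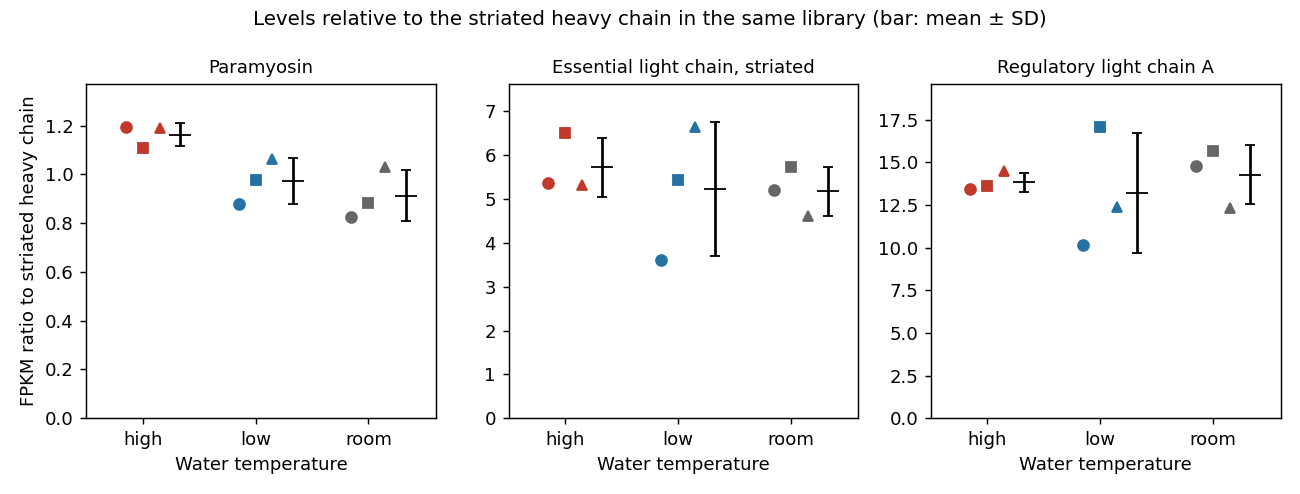
FPKM of paramyosin, the striated essential light chain and regulatory light chain A divided by that of the striated heavy chain in the same library, by water temperature, with replicates 1, 2 and 3 as circle, square and triangle and mean ± SD as a bar. Paramyosin ratios are 1.11 to 1.19 at high temperature and 0.826 to 1.07 in the other 6 libraries, and the light chain ratios overlap between groups.

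The remaining light chains were low by comparison. A match to myosin-2 essential light chain, which in Drosophila serves non-muscle myosin, evm.TU.Contig517.55, had 81.1, 88.1 and 49.2 FPKM at high, 67.6, 57.3 and 79.5 FPKM at low and 75.7, 82 and 102.8 FPKM at room temperature. High temperature replicate 3 was the lowest library here, the reverse of its place for the muscle chains. Regulatory light chain 2, smooth muscle minor isoform, evm.TU.Contig74.129, had 29.9, 18.5 and 54.3 FPKM at high, 22.5, 24.2 and 14.7 at low and 26.1, 23.8 and 29.2 at room temperature, with overlap. A further essential light chain named for adductor muscle, evm.TU.Contig812.11, had 30.3, 18.1 and 29.2 FPKM at high, 17.1, 20.7 and 60.6 at low and 11.4, 10.5 and 23 at room temperature. Its log2 difference was 0.80 for high minus room (limma adjusted p = 0.617) and 0.94 for low minus room (limma adjusted p = 0.632), and low temperature replicate 3 held the highest value. Regulatory light polypeptide 9, evm.TU.Contig685.23, which matches a smooth and non-muscle chain of vertebrates, had 17.4, 22.8 and 8.98 FPKM at high, 10.5, 14.2 and 19.5 at low and 15.7, 7.92 and 20 at room temperature. The last pair, matches to an essential and a regulatory light chain, had 16 and 0 reads over all 9 libraries.

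Titin and twitchin matches were a scattered set of models far below the 4 abundant genes. The single model named twitchin has a length of 303 bases and 1 read in all. It lies on the minus strand of Contig413 from 442793 to 454212, inside the span of a plus-strand titin model that runs from 402494 to 487163. A minus-strand titin model from 449784 to 461594 overlaps both, with 1.46, 1.82 and 2.44 FPKM at high, 2.89, 3.48 and 1.14 at low and 1.81, 2.52 and 1.73 at room temperature. The strand setting of the counting is not given in the sources used here, so reads of these overlapping models may not be separable. The model named twitchin thus gives no usable level.

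Contig413 held 6 of the models, 4 of them on the plus strand between 185346 and 648941. The titin model evm.TU.Contig413.5, with spectrin and immunoglobulin domains, had 10.8, 5.17 and 11.9 FPKM at high, 12.6, 8.43 and 4.23 FPKM at low and 6.14, 7.41 and 6.42 FPKM at room temperature. The titin model from 402494 to 487163, the longest member at 34225 bases and with fibronectin type III domains, had 15.8, 7.28 and 15.9 FPKM at high, 13.7, 10.3 and 6.59 at low and 6.55, 10.8 and 6.98 at room temperature. These models kept a ratio of 1.07 to 1.56 to each other, and both were low in high replicate 2 and low replicate 3 within their groups.

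Downstream on the same strand lie light chain kinase matches, enzymes that phosphorylate the regulatory light chain in vertebrate smooth muscle. The one with a kinase domain, evm.TU.Contig413.8 from 589581 to 648941, had 14.2, 9.34 and 40.4 FPKM at high, 5.10, 6.58 and 32.3 FPKM at low and 5.26, 4.80 and 12 FPKM at room temperature. It was highest in replicate 3 of every group, as were the deposited FPKM of the striated essential light chain, paramyosin and the striated heavy chain. Replicate 3 also had the lowest divisor relative to assigned reads in each group (0.65 at high, 0.869 at low and 0.884 at room temperature). The ratio of this kinase match to titin evm.TU.Contig413.5 ran from 0.405 in low replicate 1 to 7.62 in low replicate 3. That is an 18.8-fold range where the titin pair had 1.46-fold. Its log2 difference of 1.26 for high minus room (95% interval -0.20 to 2.73) did not pass (limma adjusted p = 0.575), and its residual spread exceeded that of 98% of gene models tested. The neighbouring kinase match evm.TU.Contig413.6 from 546141 to 552656, with a fibronectin domain and no kinase domain annotated, had 5.32, 5.87 and 4.63 FPKM at high, 4.23, 4.45 and 5.02 FPKM at low and 10, 6.95 and 5.23 FPKM at room temperature. The kinase match evm.TU.Contig1318.3, with a kinase domain, had 2.01, 0.998 and 2.98 FPKM at high, 2.18, 1.90 and 3.64 at low and 0.931, 1.52 and 1.55 at room temperature. Whether the plus-strand models of Contig413 belong to 1 transcript was not tested.

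Off that contig, titin evm.TU.Contig124.127 on Contig124 was the most abundant of its name. It had 42.7, 25.2 and 77.3 FPKM at high, 55, 45.2 and 24 at low and 41.5, 37.6 and 47.9 at room temperature, with overlap. A second titin model of that contig, from 2470067 to 2477920, had 12.1, 13.2 and 4.93 FPKM at high, 7.45, 6.94 and 16.8 at low and 6.82, 9.09 and 6.83 at room temperature, so the library that was highest for the first model was lowest for the second. Titin evm.TU.Contig363.3, which carries immunoglobulin and smoothelin domains, had 16.9, 7.59 and 12.4 FPKM at high, 22.1, 25.6 and 15.7 FPKM at low and 18.7, 22.6 and 14.9 FPKM at room temperature. Its log2 difference of -0.77 for high minus low (95% interval -1.48 to -0.06) had the lowest p among the members in that comparison, and the groups overlapped (limma adjusted p = 0.374). For high minus room the difference was -0.61 (limma adjusted p = 0.574). The other 9 titin and twitchin models averaged under 1 FPKM, and 2 of them had no read.

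**Figure D3:**
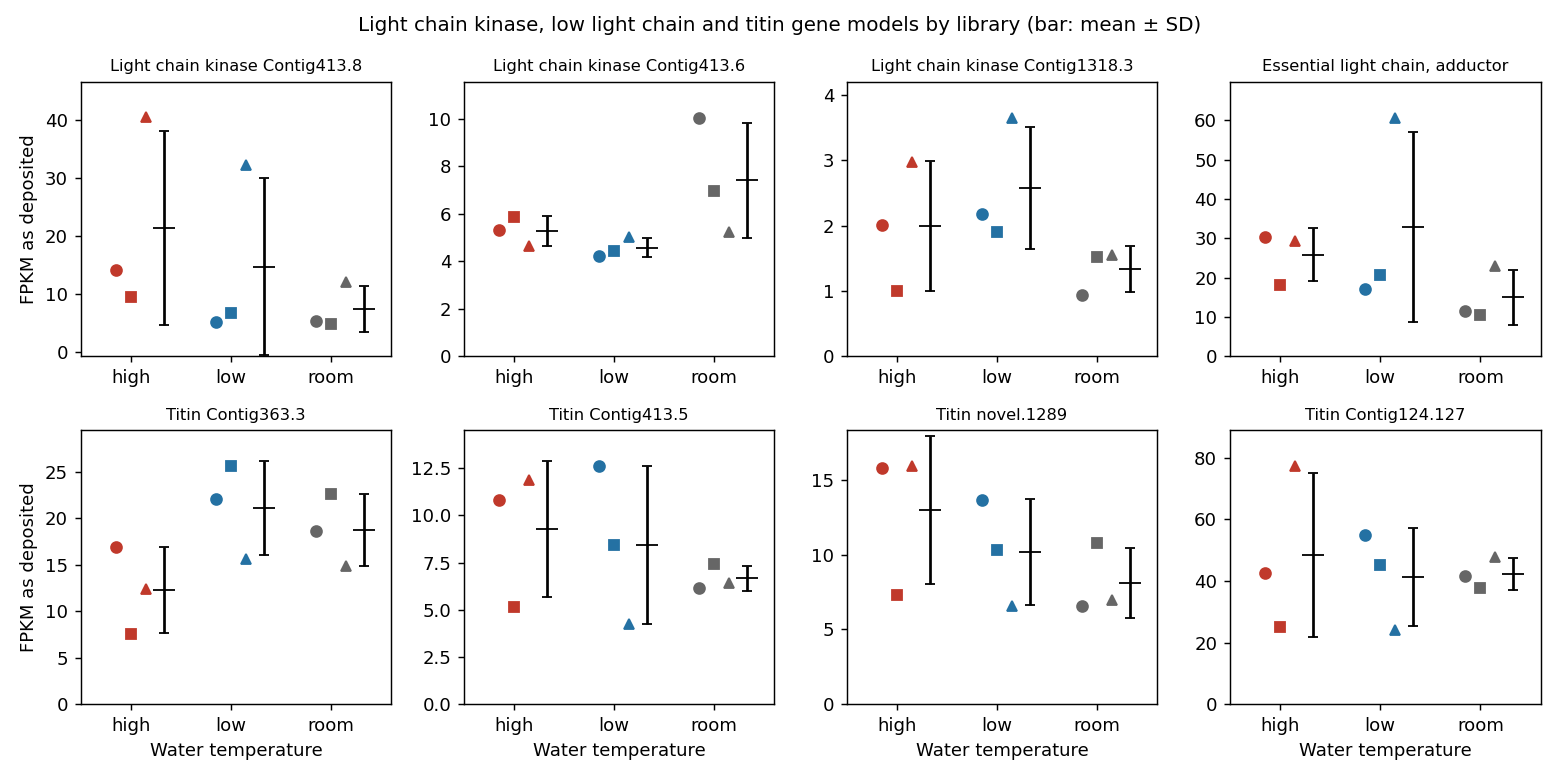
FPKM as deposited of 3 light chain kinase matches, the low essential light chain and 4 titin matches by water temperature, with replicates 1, 2 and 3 as circle, square and triangle and mean ± SD as a bar. Light chain kinase evm.TU.Contig413.8 reaches 40.4 and 32.3 FPKM in replicate 3 of the high and low groups, and titin evm.TU.Contig363.3 has lower values in 2 of 3 high libraries than in any low or room library.

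Among motors outside the muscle filament, most unconventional myosins averaged under 1 FPKM, the limit for testing, while the non-muscle heavy chain averaged 12.8 FPKM. The non-muscle heavy chain, the class II motor of the cell cortex, evm.TU.Contig823.46, had overlapping groups at 14, 15.4 and 11.2 FPKM at high, 12.4, 12.1 and 13.9 at low and 11.5, 9.21 and 15.6 at room temperature. Of 27 unconventional myosins 4 averaged at least 1 FPKM and were tested, and 3 had no read in any library. Myosin-XVI, with ankyrin repeats beside its motor domain, led them at 6.60, 7.50 and 3.18 FPKM at high, 9.57, 7.34 and 4.28 at low and 6.55, 6.26 and 5.16 at room temperature. Myosin-Id, a membrane-linked class I motor, had 2.48, 2.6 and 1.58 FPKM at high, 1.82, 2.57 and 2.38 at low and 1.13, 2.23 and 2.20 at room temperature. Myosin-XVIIIa had 1.35, 1.37 and 1.34 FPKM at high, 1.86, 0.740 and 1.11 at low and 1.07, 0.734 and 1.74 at room temperature. High temperature libraries lay within the room temperature range for myosin-XVIIIa, and all groups overlapped for both. Myosin-Va, an organelle carrier with the DIL cargo domain, had 1.07, 1.49 and 0.791 FPKM at high, 1.41, 1.06 and 0.990 at low and 0.877, 0.895 and 0.799 at room temperature, an average of 1.04. The tested members ended there, and unconventional myosin heavy chain 6 lay just outside at 0.957 FPKM.

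The 10 models named myosin-III and 5 named myosin-VIIa all averaged under 0.3 FPKM. These names are those of photoreceptor and hair cell classes in animals where they are known. Of the models named myosin-III 4 carry a chitin synthase domain beside the motor domain, and whether those are class III motors was not tested. A motor domain is annotated in 21 of the 27 unconventional models. Some neighbours share a name, as do the 4 myosin-VIIa models between 32114 and 132105 on Contig948, so the number of models need not be the number of genes. For a model with no read over 126292378 assigned reads, counting error still leaves room for an expected count of up to 3 reads.

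**Figure D4:**
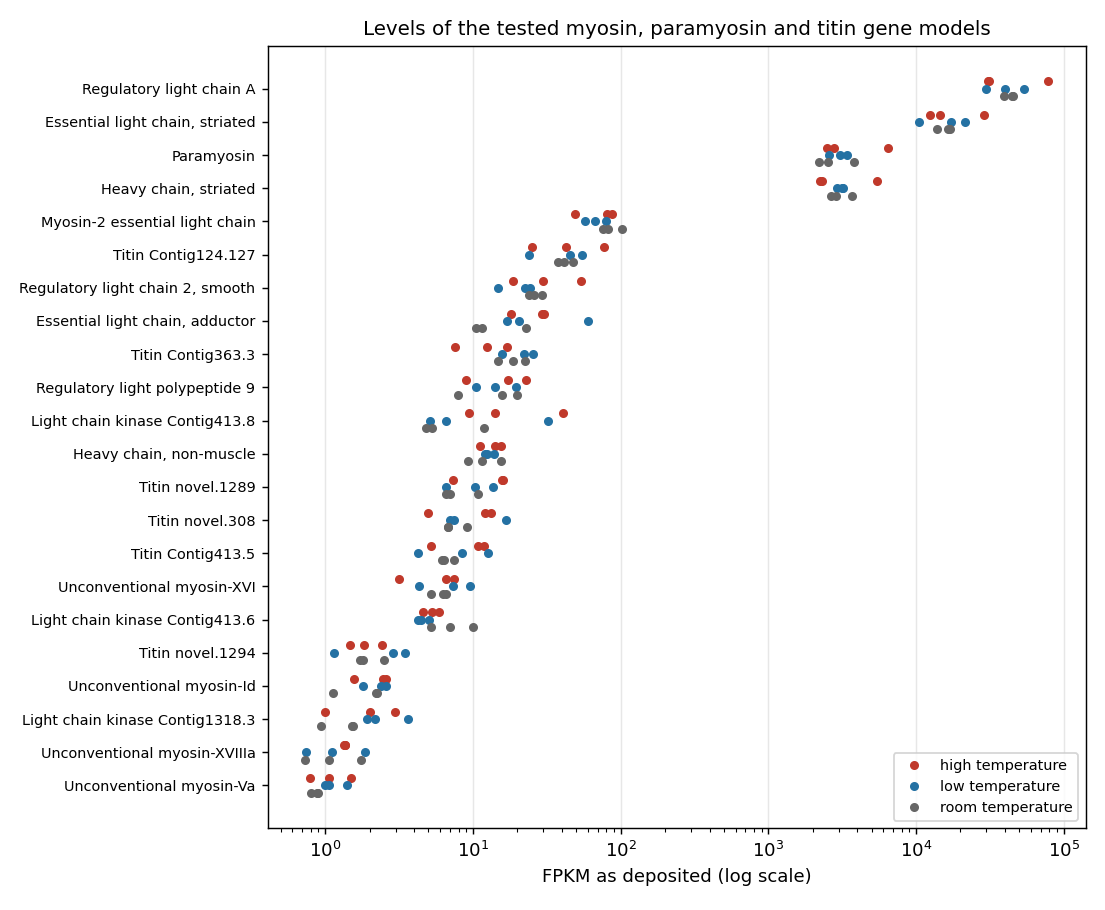
FPKM as deposited, on a log axis, of the 22 members that averaged at least 1 FPKM, with 1 point per library in red for high, blue for low and grey for room temperature. The 4 abundant genes lie above 2000 FPKM and the other 18 below 103 FPKM, and high and room points overlap in every row.

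Across the set, 0 of 22 tested members were called in high minus room, where 0% of all 8624 gene models were. In low minus room 0 of 22 were called against 0.151% of all, and in high minus low 0 of 22 against 0.162%. The lowest limma adjusted p among members was 0.574, 0.606 and 0.374 in these comparisons. At an unadjusted p under 0.05 limma gave 0, 0 and 1 member, against 9.57%, 8.16% and 11.9% of all gene models, and voom on the recovered reads also called 0 members in each. Groups did not overlap for 0 of 22 members in high against room libraries, where 16.5% of all gene models did not (7.54% higher and 8.97% lower). In high against low libraries it was again 0 of 22, against 17.2% of all (8.75% higher and 8.45% lower). For low against room libraries 3 members did not overlap, against 15.3% of all. Kinase evm.TU.Contig413.6 was lower, as were 8.74% of all gene models, with a log2 difference of -0.56 (limma adjusted p = 0.606). Kinase evm.TU.Contig1318.3 was higher, as were 6.53% of all gene models (log2 difference 0.60, limma adjusted p = 0.649). Myosin-Va was also higher, with a log2 difference of 0.21 (limma adjusted p = 0.884). Taken in either direction these shares lie near or under those of all gene models. In low against room the 2 of 22 that were higher are a somewhat larger share than the 6.53% of all gene models. High minus room and low minus room share the same room libraries.

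The 14 tested models of the muscle set are the muscle heavy chain, light chains, paramyosin and titins. Light chains evm.TU.Contig517.55 and evm.TU.Contig685.23, whose matches are non-muscle or both smooth and non-muscle chains, are among them. The median log2 difference of the 14 was 0.16 in high minus room, 0.09 in low minus room and 0.09 in high minus low. Over all gene models tested the medians were -0.03, -0.04 and 0.01. Between 9 and 10 of the 14 lay above 0 in each comparison. Without high temperature replicate 3 the first and the last of these medians were -0.11 and -0.21, so that library set their sign.

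**Figure D5:**
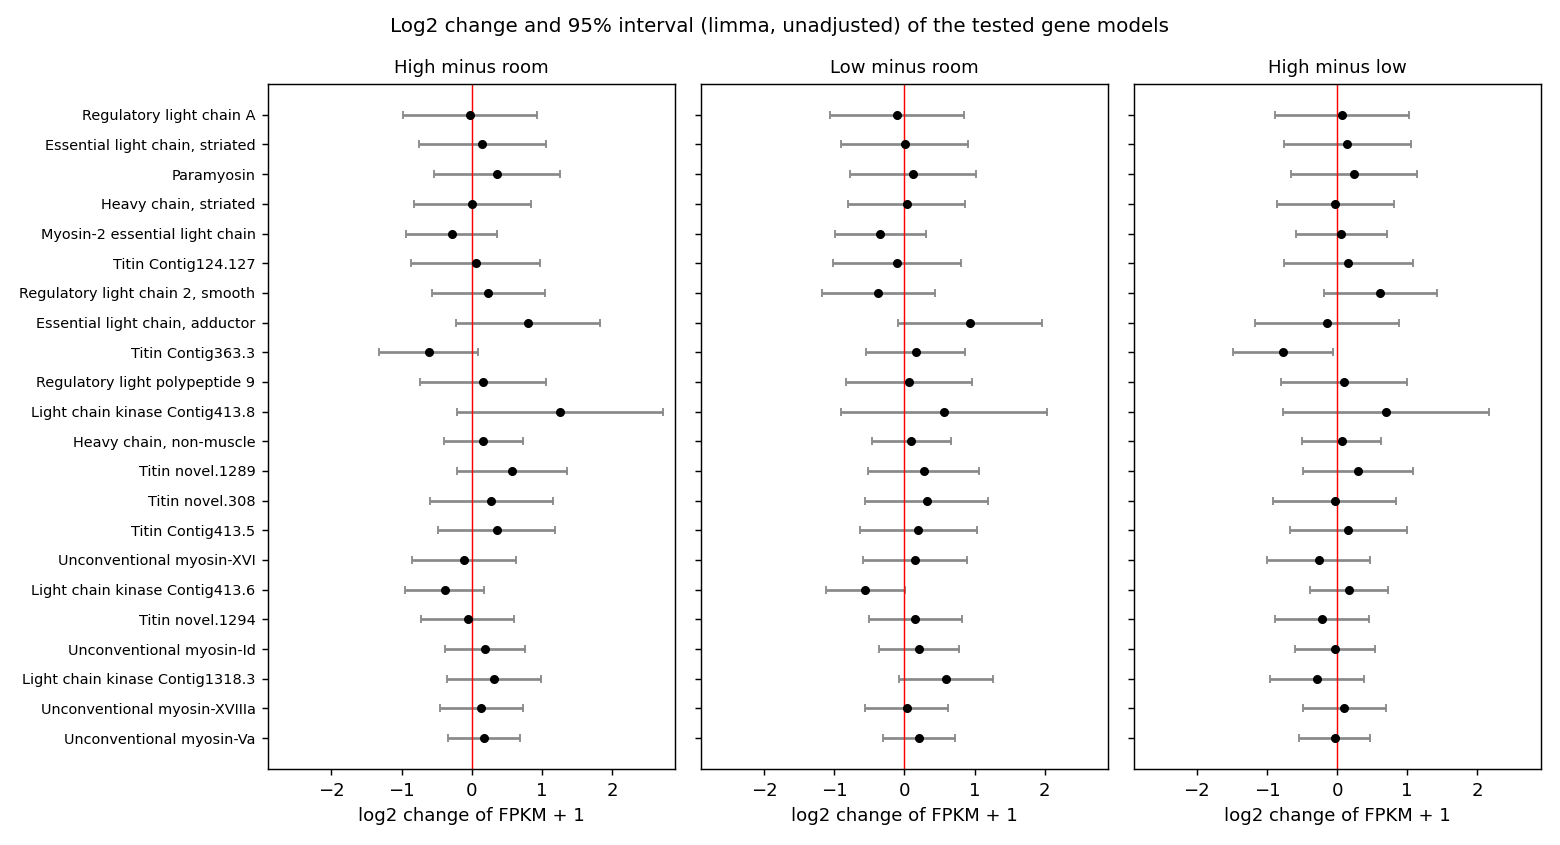
Log2 difference on the FPKM + 1 scale with its unadjusted 95% interval (limma) for the 22 tested members in high minus room, low minus room and high minus low, ordered by mean FPKM from the top. Intervals cross 0 throughout, except for titin evm.TU.Contig363.3 in high minus low (-1.48 to -0.06).

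Partner genes of the contractile machine were read from lists by protein name. On the thin filament list, which forms the track that myosin pulls, 10 of 41 models were tested and 0 were called in any comparison, with medians of -0.01, -0.02 and -0.07 in high minus room, low minus room and high minus low. In high minus room, adductor muscle actin had a log2 difference of -0.12 and Actin-2 evm.TU.Contig421.35 one of -0.93 (limma adjusted p = 0.52 for Actin-2), and 5 of the 10 lay above 0, up to 0.56 for cytoplasmic actin evm.TU.Contig280.102. Of 20 Z-disc and anchor models 13 were tested and 0 called, with medians of -0.24, 0.10 and -0.17. In high minus room 5 of the 13 lay above 0, led by filamin-A, an actin cross-linker, at 1.05 (limma adjusted p = 0.675). The match to unc-89, an obscurin-like protein of the M-line where thick filaments are joined in nematode muscle, had a log2 difference of -0.84 in high minus low (limma adjusted p = 0.254).

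The list of genes that fold or phosphorylate myosin had 11 of 23 models tested, 0 called, and medians of -0.02, -0.04 and -0.24. Protein unc-45 homolog B, the chaperone that folds myosin heads, had log2 differences of -0.48 in high minus room and -0.39 in low minus room. SMYD2-B, a lysine methyltransferase and the most abundant of the list at 122 FPKM, had 0.54 in high minus room and -0.21 in low minus room (limma adjusted p = 0.686 and 0.932). Of 76 calcium switch models 23 were tested and 0 called, with medians of -0.02, 0.15 and -0.22. Sarcoplasmic calcium-binding protein, a soluble calcium buffer at 10524 FPKM on average, had a log2 difference of -0.83 in high minus room (limma adjusted p = 0.769). Calmodulin evm.TU.Contig131.10, a calcium sensor at 1.37 FPKM, had 1.13 in the same comparison, with the lowest adjusted p of the list there (limma adjusted p = 0.338), and 11 of the 23 lay above 0.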

How the data were processed

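Adductor muscle RNA of 9 libraries was measured by sequencing. Per the submitters' processing notes HISAT2 2.0.4 and HTSeq 0.9.1 were used. Neither genome build nor strand setting is given in the sources used here. Values deposited by the authors are FPKM per gene model. FPKM times model length and the divisor gave whole reads to within 3.66e-08, so reads and depth could be recovered. Gene models with a mean of at least 1 FPKM over the 9 libraries (8624 of 28864) were tested on log2(FPKM + 1) with limma 3.58.1 in R 4.3.3, with 1 mean per group, a mean-variance trend and Benjamini-Hochberg adjustment; fold changes on this scale understate those of low genes. Members were named by mean FPKM within their class and by the lowest p in each comparison, which with their neighbours came to all tested members. Partner genes were named after their values were seen. The members and lists were chosen with earlier results of these data known. Alternatives covered the pseudocount, filter, scaling, a count test (voom on recovered reads), array weights, left-out libraries and a replicate block. Figures were drawn with matplotlib 3.10.9.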

Additional observations from a re-analysis of the deposited data

How the results depend on the processing

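Member calls stayed at 0 in each comparison under every alternative run, of the members each one tested, the replicate block included, and the lowest adjusted p of any member in any of them was 0.184 (limma with array weights, titin evm.TU.Contig363.3, high minus low). In high minus room the median log2 difference of the 14 tested models of the muscle set was 0.42 with libraries scaled to the same thin filament median. It was -0.11 with replicate 3 of both the high and low groups left out, a setting chosen after seeing the data. In high minus low it was 0.41 with the thin filament scaling. The cause was not tested. That scaling shifts the median of all gene models by 0.21, -0.04 and 0.25 in high minus room, low minus room and high minus low. Leaving out 1 library at a time gave medians of -0.11 to 0.25, 0.02 to 0.13 and -0.21 to 0.23 in these comparisons. The paramyosin to heavy chain ratio differed by 0.206 to 0.309 between high and room, 0.0140 to 0.119 between low and room and 0.143 to 0.236 between high and low when 1 library was left out. Deviations of same-numbered libraries from their group means had low correlations (0.0359 to 0.186, -0.0344 to 0.0702 and -0.103 to 0.242). Still, every high library correlated best with the room library of its own number. So did low replicates 1 and 3 with room, but not low replicate 2, and only replicate 1 in high against low. Whether the numbers mark pairs was not tested. With the replicate block the medians were 0.16, 0.09 and 0.09. With 3 libraries per group the intervals are wide, and low models rest on few reads.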
